A study of Mus musculus with 36 samples.

Results

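Cytosolic ribosome and translation factor genes were followed in whole brains of newborn mice of 3 lines. They were the autosomal genes, chromosome 10 left out, named Rpl or Rps with a number, Rplp, Rpsa, Eif or Eef. Each was represented by its brightest probe among those detected in at least 6 of the 18 arrays. Of 101 such genes with a probe on the array, 92 were measured, 61 encoding ribosomal proteins and 31 translation factors, among 4147 named genes with a kept probe. The 9 others had no probe detected on any of the 18 arrays, and 11 further genes with matching names lay on chromosome 10 or a sex chromosome.

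The study concerns Rnf41 in behaviour and seizures, per its title. The C10 congenic line, written A.B6chr10 in the series text, reads by the usual naming as an A/J background with chromosome 10 material of B6, whose extent the labels do not state. B6 and A/J are inbred strains, and none of the 3 groups carries a transgene or treatment in the labels. Each line gave 6 brains of postnatal day 0.5, hybridised one brain per Illumina Sentrix Mouse-6 array, and sex is not given. Values are the deposited signal, a probe's brightness after background subtraction, and a probe counts as detected where its deposited detection score exceeds 0.99.

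A ribosome joins a small subunit, which decodes the messenger RNA, to a large subunit, which forms the peptide bond, and each is built from ribosomal RNA and one copy of most ribosomal proteins. Initiation factors bring the small subunit and the initiator tRNA to the capped end of a messenger RNA, and elongation factors deliver tRNAs and move the ribosome along. Messenger RNAs of mammalian ribosomal proteins and of several translation factors commonly begin with a short pyrimidine tract, through which growth signals control their translation. In newborn brain, where neurons grow axons and dendrites, these messenger RNAs are among the most abundant.

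A pyrimidine run was looked for anywhere in the 30 bases from 20 before to 10 after each annotated start, taken from RefSeq promoters of GRCm38.p6. Where a gene had several starts, the start with the longest run was chosen. Such a run may lie wholly before the start, so it is not in itself the tract of the messenger RNA. Of the ribosomal protein members, 43 of 61 matched the promoter table, and 21 of these (48.8%) held a run of at least 8 pyrimidines. Of 22 factor members that matched, 4 (18.2%) held one, against 14.5% of all 27025 genes in the table. The 2 longest runs among members belong to Rpl7a and Rpl34, and are shown first as examples of the feature. The 8 windows after them are those of the members, described below, whose signal differed between lines (Rpl29, Rpl21, Rps4l and Eif4ebp3 are not shown), and the capitals mark the longest pyrimidine run of each window.
Rpl7a (chr2:26910787-26910816, plus strand): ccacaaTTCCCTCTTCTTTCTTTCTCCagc
Rpl34 (chr3:130730328-130730357, minus strand): ccgCCCCTTCCTTTTCCTCTTCCggggacg
Rps9 (chr7:3704021-3704050, plus strand): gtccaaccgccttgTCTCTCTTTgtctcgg
Rps27l (chr9:66946066-66946095, plus strand): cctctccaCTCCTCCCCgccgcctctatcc
Rps3a1 (chr3:86142659-86142688, minus strand): gaTTCTTaaagccggaagggcgaaagagca
Rps2 (chr17:24720043-24720072, plus strand): tgcgtaggcagtcgagatctcgcgCTTCTT
Eif4e (chr3:138527248-138527277, plus strand): tcctctcgCCCCCCCTTCaggagcggttgt
Eif4e2 (chr1:87213919-87213948, plus strand): gaagtagccgggCCCTTagcgatgggaccc
Eif4b (chr15:102073753-102073782, plus strand): gcgcaggTCTTCCCgtcggacgccgcgcca
Eif2ak1 (chr5:143817772-143817801, plus strand): gtcactggggcgggaCTTCCgttggctctt

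The runs are 21 bases in Rpl7a and 20 in Rpl34, 9 each in Rps9 and Rps27l and 10 in Eif4e. Rps3a1, Eif4e2 and Eif2ak1 have runs of 5, Rps2 of 6 and Eif4b of 7, under the limit within these windows. The run of Rps2 ends at the edge of its window, so it may be longer. So does another run of 5 in Eif2ak1, not in capitals, which may also be longer. Thus within the windows 3 of the 8 members with a difference and 22 of the 57 without one (38.6%) passed the limit. The runs of Rps27l and Eif4e end before the annotated start, and that of Rps9 crosses it. The letters CCGGAAG, on either strand of the 300 bases from 250 before to 50 after the start, occurred in 41.9% of the ribosomal and 36.4% of the factor promoters, against 9.93% of all. The reverse complement of these letters begins with 5 pyrimidines, so the 2 features can overlap near the start. These are descriptions of letters, and no binding was measured.

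Neuronal messenger RNAs marked the tissue: 7 neuronal markers were measured, led by the growth cone protein gene Gap43, and their summed signal ran from 55836 to 65449 in C10 congenic, from 49614 to 68726 in B6 and from 58521 to 65475 in A/J brains. No marker of the oligodendrocyte lineage was measured. Red blood cell markers differed with B6. Their summed signal had a median of 39200 in C10 congenic, 13203 in B6 and 40258 in A/J brains, from Hba-a1, Hbb-b1 and Hbb-b2, all 3 of which differed in both comparisons with B6. Hba-a1 and Hbb-b2, which carry the sum, were lower in B6 than in A/J brains, and Hbb-b1 was higher. Arrays had 14394 to 15715 probes detected, and 15873 probes were kept for testing. Precision is limited by the 6 arrays per line.

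2 arrays stood apart. On the array of C10 congenic brain 3, 30 probes whose signal exceeded 500 on all 17 other arrays were undetected, whereas 16 of the others had 0 such probes and A/J brain 6 had 1. B6 brain 4 had no such loss but had 112 probes below 0.5 times the lowest signal on the other arrays, against at most 8 on any array other than these 2. Their mean correlations with the other arrays, across probes, were 0.944 and 0.940, and those of the remaining arrays 0.954 to 0.975. Rps13, of the small subunit, is a member lost in this way and is named because of it. Its deposited signal was −52.3 in C10 congenic brain 3, against 14557 to 20339 in the other C10 congenic brains, 13531 to 18526 in B6 and 18032 to 22164 in A/J brains. Its fitted difference was −1.76 (SE 1.04, limma adjusted p = 0.43) for C10 congenic minus A/J, and −0.16 (adjusted p = 0.573) without that brain. Naca, which binds nascent chains at the ribosome and is not a member, was lost on the same array with a signal of −57.1. Counts of calls, medians, line order and the median correlation are given below with and without them.

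The members were bright, in part because the rule took detected probes and the brightest of each gene. Probes of 45 ribosomal protein genes and 3 factor genes (Eef1g, Eef1b2 and Eif1) lay among the brightest 1% of all probes on the array, undetected ones included. Of the 92 members, 86 were detected on all 18 arrays, as were 11829 of all 15873 kept probes. The 10 brightest members were all ribosomal: Rps20, Rps27a, Rpl38, Rps29, Rps14, Rpl37, Rps7, Rpl19, Rpl3 and Rpl23. Rps20 had signals of 32016, 39029 and 42971 (lowest, median and highest) in C10 congenic, 33476, 39507 and 43737 in B6 and 38119, 40573 and 44388 in A/J brains, so the lines overlapped. None of these 10 differed between lines by limma's test in any comparison. Probe brightness is no measure of amount between genes, and some members of textbook abundance had dim probes. Eef1a1, the factor that brings tRNAs to the ribosome, was detected in 2 C10 congenic, 2 B6 and 3 A/J brains, with median signals of 80.9, 62.1 and 92.9. Rpl4 was detected in 3, 3 and 5 brains of those lines. Rpl36al was detected in 6, 5 and 6, and its differences were at most 0.10 in size. Probes of Rpsa, Rps18, Rps19, Rpl18, Rplp2, Eif2s1, Eif4a2, Eif5b and Eef2kmt were detected in none of the 18 brains, so these genes are not measured here.

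Differences between lines were few. By limma's test, adjusted by the Benjamini-Hochberg method over all kept probes, 2 members were lower and 0 higher in C10 congenic than in A/J brains, where 0.441% of all kept probes were called higher and 0.491% lower, 0.932% in all. Between C10 congenic and B6 brains, 1 member was higher and 7 lower, where 5.99% of all kept probes were called higher and 6.11% lower, 12.1% in all. In B6 relative to A/J brains, 4 members were higher and 4 lower, where 8.12% of all kept probes were called higher and 8.01% lower, 16.1% in all. Read against all kept probes called in either direction, the 2 members for C10 congenic minus A/J were above that share, and the 8 in each comparison with B6 were below it. The 2 are few, and leaving out 1 brain gave 0 to 3 such calls. By direction, the 7 members lower in C10 congenic than in B6 brains were near their share. They include Rpl29, which passed the detection filter only through B6. The other counts in the comparisons with B6 were below their shares. In all, 12 members were called in any comparison, 7 ribosomal and 5 factor genes. Of the 92 members, 66 had a fitted log2 difference under 0.25 in size in each of the 3 comparisons. Both comparisons with B6 share the B6 brains, and both with A/J share the A/J brains, so their calls are not independent. In these whole brains, fewer cells of a type and less RNA per cell cannot be told apart.

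**Figure D1:**
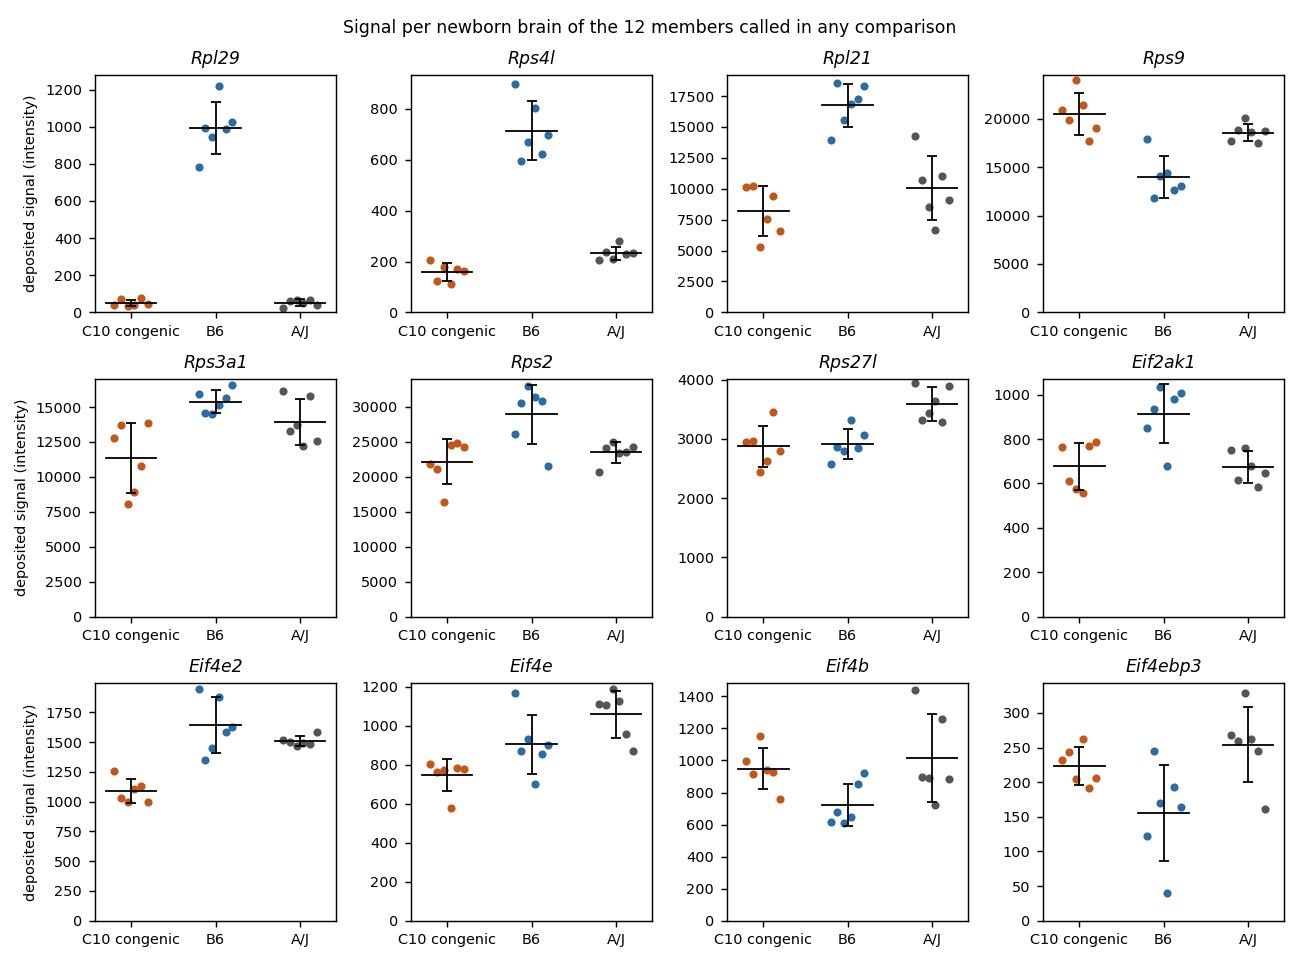
Deposited signal (vertical axis, linear intensity from 0) of the 12 members called in any comparison, with 1 point per brain of the C10 congenic, B6 and A/J lines and black bars for the mean and SD of 6 brains. Rpl29 and Rps4l are high in the 6 B6 brains alone, while most other panels show lines whose brains overlap.

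Rpl29 (NCBI Gene 19944, chromosome 9), a large subunit protein, had the largest difference. Its signal was 36.1, 43.25 and 75.6 in C10 congenic, 782.9, 989.3 and 1221 in B6 and 24.6, 57.35 and 69.0 in A/J brains (lowest, median, highest). It was detected in 6 of 6 B6 brains and in 0 of 6 brains of either other line. All B6 brains lay far above all others. The mean was 51.1 ± 16.9 in C10 congenic, 992 ± 141 in B6 and 52.4 ± 17.3 in A/J brains (SD, n = 6 each). The B6 signal was at least 6.45-fold above that of C10 congenic and at least 6.58-fold above that of A/J (limma adjusted p = 5.0e-16 and 6.0e-16). The bound on each dim line is the lowest detected signal on each array. No other kept probe reads Rpl29, so these bounds hold for the signal of 1 probe. Whether that probe matches the sequences of all lines alike was not tested. Rpl29 passed the detection filter only through the B6 brains, so that it differed follows in part from its being measured. With 1 B6 brain left out it no longer passes the filter.

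Rpl21 (NCBI Gene 19933, chromosome 5), also of the large subunit, was higher in B6 brains. Its signal was 5267, 8469 and 10250 in C10 congenic, 13926, 17074 and 18577 in B6 and 6682, 9908 and 14306 in A/J brains. B6 brains lay above all C10 congenic brains, and A/J brain 1 reached into the B6 range. The log2 difference was −1.08 (SE 0.165, adjusted p = 3.9e-05) for C10 congenic minus B6 and 0.78 (SE 0.165, adjusted p = 0.00165) for B6 minus A/J by limma. Without C10 congenic brain 3 the first was −0.96 (adjusted p = 0.0001). A second kept probe of Rpl21, dimmer, gave −0.64 (adjusted p = 0.000128) and 0.63 (adjusted p = 0.000143), the same direction in both. Ribosomal proteins have many near-identical pseudogene copies in the mouse genome. Probe sequences are not used here, so it is uncertain for each ribosomal gene how far its probe also reads copies. Whether a probe of any gene matches the sequences of all lines alike was likewise not tested.

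The 36 large subunit genes held no other call. Their median log2 difference was −0.12 for C10 congenic minus A/J, 0.00 for C10 congenic minus B6 and −0.13 for B6 minus A/J, against medians of 0.00, 0.02 and −0.02 over all kept probes. Of the 36, 33 were below 0 in C10 congenic minus A/J and 31 in B6 minus A/J. None was called between C10 congenic and A/J brains by limma. There, 2413 of all 15873 kept probes had an unadjusted p under 0.05, as had 7 of these 36 genes. The lowest difference there was that of Rpl35a, named for it after its values were seen, at −0.41 (SE 0.123, adjusted p = 0.11). Rpl10a, likewise named afterwards, had B6 brains of 9094 to 10998 all below A/J brains of 11097 to 13426, although its difference of −0.19 was not called (adjusted p = 0.149). Rpl3, which lines the peptidyl transferase region, differed by 0.02 and 0.13 in C10 congenic relative to A/J and B6. Rplp0, of the ribosomal stalk, differed by −0.17 and −0.09 in those comparisons, and Rpl13a, known for a second role in translational silencing, by 0.24 and 0.09, with no call. Rpl22l1, the paralogue of Rpl22, varied between 301 and 1053 among C10 congenic, 419 and 879 among B6 and 371 and 864 among A/J brains, and no difference was called. Of Rpl7l1, the brightest probe was not called, while its dimmer probe was lower in B6 than in A/J brains by −0.44 on the log2 scale (SE 0.113, adjusted p = 0.00817), with no overlap (130.9 to 227.3 in B6, 239.9 to 352.0 in A/J). The probes of Rpl27a were not called in any comparison.

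Rps4l (NCBI Gene 66184, chromosome 6), a mouse paralogue of the small subunit gene Rps4x, was highest in B6 brains. Its signal was 112.4, 166.1 and 207.5 in C10 congenic, 594.7, 683.9 and 896.2 in B6 and 204.1, 230.6 and 279.1 in A/J brains. The B6 brains lay above all others, and the ranges of C10 congenic and A/J met at their ends. The log2 difference was −1.76 (SE 0.113, adjusted p = 1.4e-11) for C10 congenic minus B6 and 1.35 (SE 0.113, adjusted p = 1.8e-09) for B6 minus A/J by limma. C10 congenic minus A/J was −0.40 and was not called (adjusted p = 0.0824). Without C10 congenic brain 3 and B6 brain 4 together, the calls against B6 stayed at −1.75 and 1.32.

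Rps9 (NCBI Gene 76846, chromosome 7), a small subunit protein, gave opposite answers on its 2 kept probes. On the brightest probe the signal was 17722, 20390 and 23961 in C10 congenic, 11770, 13590 and 17922 in B6 and 17503, 18669 and 20032 in A/J brains. B6 was low there, with 5 of its 6 brains below all A/J brains. The fitted log2 difference was 0.56 (SE 0.101, adjusted p by limma 0.000312) for C10 congenic minus B6 and −0.40 (adjusted p = 0.00697) for B6 minus A/J.

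On the other probe of Rps9 the signal was 9693, 11861 and 13011 in C10 congenic, 18663, 19589 and 25508 in B6 and 8413, 11341 and 14160 in A/J brains. B6 was high there, with no overlap with either line. The log2 differences were −0.83 (SE 0.116, limma adjusted p = 9.6e-06) for C10 congenic minus B6 and 0.87 (SE 0.116, adjusted p = 4.3e-06) for B6 minus A/J. With both probes averaged, neither comparison was called, and the signs followed the second probe (−0.14 and 0.23). No direction can therefore be given for Rps9 as a gene.

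**Figure D2:**
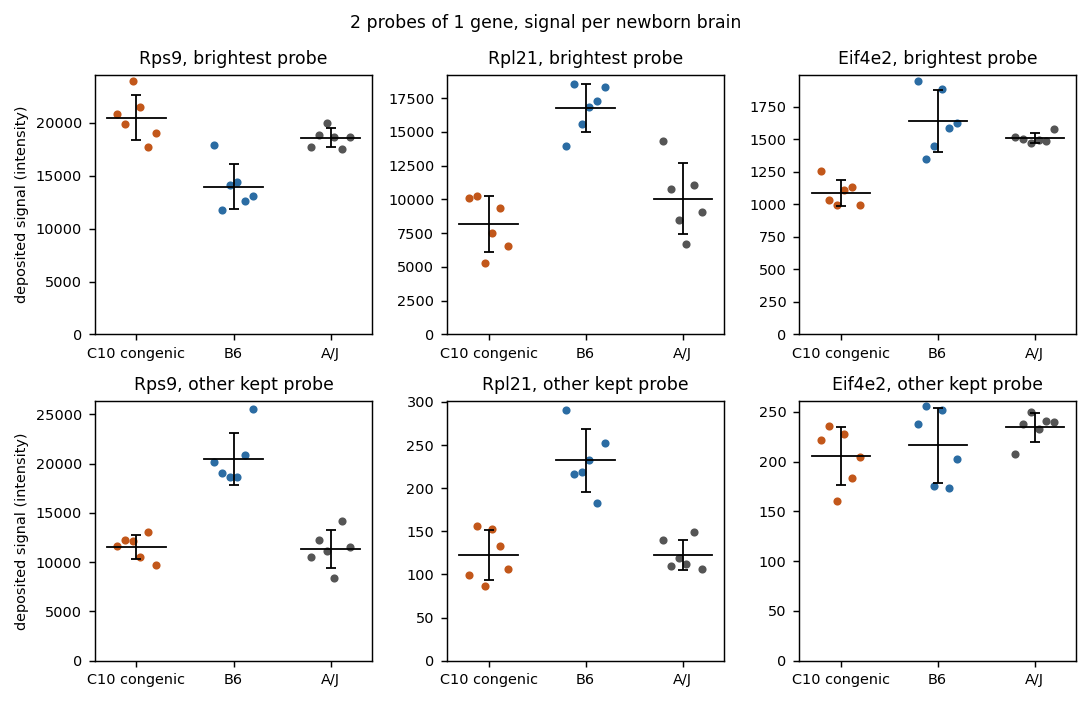
Deposited signal (vertical axis, linear intensity from 0) of the brightest probe (top row) and the other kept probe (bottom row) of Rps9, Rpl21 and Eif4e2, with 1 point per brain of the C10 congenic, B6 and A/J lines and bars for the mean and SD of 6 brains. B6 brains are low on the upper and high on the lower Rps9 probe, and high on both Rpl21 probes, while C10 congenic brains are low on the upper Eif4e2 probe only.

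Among the other small subunit genes, Rps3a1 (NCBI Gene 20091, chromosome 3) had signals of 8039, 11769 and 13886 in C10 congenic, 14511, 15404 and 16599 in B6 and 12176, 13506 and 16153 in A/J brains. C10 congenic brains lay below all B6 brains, by −0.49 on the log2 scale (SE 0.127, adjusted p by limma 0.0113), and by −0.39 (adjusted p = 0.0342) without C10 congenic brain 3. Rps2 (NCBI Gene 16898, chromosome 17) had signals of 16338, 23057 and 24808 in C10 congenic, 21592, 30670 and 32989 in B6 and 20620, 23784 and 24979 in A/J brains. These lines overlapped through B6 brain 6, the lowest of its line. Its difference of −0.38 from B6 (SE 0.113, adjusted p = 0.0273) was lost without C10 congenic brain 2 or 3 or without B6 brain 2, 3, 4 or 5, with values of −0.37 to −0.30 and adjusted p of 0.0518 to 0.0787.

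Rps27l (NCBI Gene 67941, chromosome 9), the paralogue of Rps27 and a target of p53, had signals of 2437, 2874 and 3463 in C10 congenic, 2579, 2854 and 3321 in B6 and 3288, 3542 and 3942 in A/J brains. B6 brains and A/J brains met only at their ends, and B6 was lower by −0.29 (SE 0.096, limma adjusted p = 0.0374). This call was lost on leaving out B6 brain 1, 2, 3 or 5 or A/J brain 1, 3, 4 or 6, with differences of −0.31 to −0.26 and adjusted p of 0.0554 to 0.0794. C10 congenic minus A/J was of like size, −0.32, and was not called (adjusted p = 0.107). Rps6, the substrate of S6 kinase, ranged widely in all lines (2192 to 5509 in C10 congenic, 2067 to 4808 in B6, 2612 to 5218 in A/J brains) and differed by at most 0.16 in size. Neither of the 2 kept probes of Rps3 was called.

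Of the 25 small subunit genes, limma called none between C10 congenic and A/J brains. There, 2413 of all 15873 kept probes had an unadjusted p under 0.05. Of the 25 genes, 6 had one, and 23 lay below 0. Against B6, 1 was higher and 3 lower in C10 congenic brains, and 1 was higher and 2 lower in B6 than in A/J brains. Over all kept probes 5.99% were higher and 6.11% lower in C10 congenic than in B6 brains, and 8.12% higher and 8.01% lower in B6 than in A/J brains. The medians of their log2 differences were −0.15 for C10 congenic minus A/J, −0.08 for C10 congenic minus B6 and −0.08 for B6 minus A/J.

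The cap-binding complex eIF4F and its partners include the binding subunit, its homologues, helicases, scaffolds and inhibitors. Eif4e2 (NCBI Gene 26987, chromosome 1), a cap-binding homologue of eIF4E that represses translation, had signals of 996.8, 1070 and 1256 in C10 congenic, 1351, 1605 and 1949 in B6 and 1471, 1498 and 1581 in A/J brains. All C10 congenic brains lay below all brains of both other lines. The log2 difference was −0.56 (SE 0.096, limma adjusted p = 0.000162) from B6 and −0.45 (SE 0.096, adjusted p = 0.0275) from A/J brains. The call against B6 was kept on leaving out any 1 brain. That against A/J was lost without any one of A/J brains 1 to 5 or C10 congenic brain 2 or 6, with values of −0.46 to −0.43 and adjusted p of 0.0533 to 0.0773. The dimmer probe of Eif4e2 gave −0.05 and −0.15 in these comparisons and was called in neither (adjusted p = 0.795 and 0.49).

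Eif4e (NCBI Gene 13684, chromosome 3), the cap-binding subunit of eIF4F, had signals of 579.5, 774.5 and 805.6 in C10 congenic, 700.7, 886.0 and 1167 in B6 and 868.6, 1108 and 1189 in A/J brains. C10 congenic brains lay below all A/J brains and overlapped with B6. It was lower than in A/J by −0.47 (SE 0.110, limma adjusted p = 0.0429), close to the threshold. The call was lost on leaving out 1 of A/J brains 1 to 5, C10 congenic brains 2 to 6 or B6 brains 2, 3, 5 or 6, with values of −0.49 to −0.40 and adjusted p of 0.0533 to 0.112. Eif4e and Eif4e2 were the only members whose C10 congenic and A/J brains did not overlap, where 1.98% of all kept probes did not, 0.794% higher and 1.19% lower.

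Eif4b (NCBI Gene 75705, chromosome 15), which stimulates the helicase eIF4A, had signals of 759.1, 935.2 and 1152 in C10 congenic, 611.4, 663.3 and 922.5 in B6 and 723.8, 894.6 and 1441 in A/J brains. The 3 lines overlapped. It was lower in B6 than in A/J brains by −0.43 (SE 0.140, limma adjusted p = 0.0365). The call was lost without B6 brain 1, 2, 3 or 4 or A/J brain 1 or 5, with values of −0.42 to −0.33 and adjusted p of 0.0646 to 0.105. Eif4ebp3 (NCBI Gene 108112, chromosome 18), one of the inhibitors that bind eIF4E, was dim, at 191.9, 218.7 and 262.9 in C10 congenic, 40.7, 166.9 and 244.6 in B6 and 161.5, 260.7 and 328.8 in A/J brains. It was undetected in B6 brain 4, the lowest, and differed by −0.56 in B6 minus A/J (SE 0.171, adjusted p = 0.0252), by −0.38 without B6 brain 4 (adjusted p = 0.0463), and by −0.50 without A/J brain 3, where the call was lost (adjusted p = 0.0694).

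The rest of the cap-binding group passed no test. Eif4a1 and Eif4a3, helicases, differed by at most 0.14 and 0.21 in size in any comparison, and Eif4g3, a scaffold, by at most 0.01. Eif4g2, a related scaffold used without the cap-binding subunit, spread from 500 to 931 in C10 congenic, 447 to 981 in B6 and 460 to 1578 in A/J brains. Eif4ebp1 differed by 0.21 and 0.08 in C10 congenic relative to A/J and B6, and Eif4e3, on its brightest probe, by 0.11 and 0.19. Of the 10 measured members of this group, 2 were lower in C10 congenic than in A/J brains, 1 was lower in C10 congenic than in B6 brains and 2 were lower in B6 than in A/J brains, with 0 higher in each. Over all kept probes, 0.491%, 6.11% and 8.01% were lower in those comparisons, and with 10 genes each call is a large share of the group.

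Eif2ak1 (NCBI Gene 15467, chromosome 5), the heme-regulated kinase that phosphorylates eIF2 and so slows initiation, was higher in B6 brains. Its signal was 557.9, 687.6 and 785.5 in C10 congenic, 676.6, 956.4 and 1036 in B6 and 582.6, 662.7 and 761.2 in A/J brains. The overlap came from B6 brain 4, the lowest of its line, and the other 5 B6 brains lay above all others. The log2 difference was −0.40 (SE 0.113, limma adjusted p = 0.0207) for C10 congenic minus B6 and 0.40 (SE 0.113, adjusted p = 0.0163) for B6 minus A/J, and without B6 brain 4 they were −0.47 and 0.47. The first call was lost without C10 congenic brain 3 or 4 or B6 brain 3 or 6, at −0.37 to −0.35 with adjusted p of 0.0513 to 0.0591. The 3 red blood cell markers differed with the same line and in both directions. Hba-a1 had 16532, 28815 and 39829 in C10 congenic, 8241, 11403 and 20971 in B6 and 24926, 30250 and 40162 in A/J brains, and Hbb-b2 was likewise low in B6, with a log2 difference of −5.79 for B6 minus A/J. Hbb-b1 was high in B6, at 2.91 in that comparison. Their part in the Eif2ak1 result was not tested. Eif2s2, a subunit of eIF2 itself, was not called, at −0.27 for C10 congenic minus A/J, −0.13 for C10 congenic minus B6 and −0.14 for B6 minus A/J.

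No call was made by limma among 7 subunits of eIF3, the scaffold of initiation. For C10 congenic minus A/J, C10 congenic minus B6 and B6 minus A/J, 1, 0 and 2 had an unadjusted p under 0.05. Of all 15873 kept probes, 2413, 4008 and 4561 had one. All 7 eIF3 subunits lay below 0 in B6 minus A/J, between −0.33 (Eif3a) and −0.05. Eif3e differed by −0.13, 0.05 and −0.17 in the 3 comparisons, and neither probe of Eif3c was called. The 6 genes grouped as start site and scanning factors, with Eif5a and Eif6 placed among them despite other roles, also held no call. Of these 6, 0, 0 and 1 had an unadjusted p under 0.05. Eif1, which guards start codon choice, Eif5, which triggers GTP hydrolysis, and Eif5a, whose hypusine helps the ribosome through stalls, differed by at most 0.17 in size, and the dimmer probe of Eif5a was not called. Eif6, which keeps unready large subunits from joining, differed by −0.11, 0.11 and −0.22. Among 6 elongation genes 0 were called and 0 had an unadjusted p under 0.05 in any comparison. Eef1a2, the form that replaces Eef1a1 in mature neurons and muscle, had signals of 3643, 4037 and 5043 in C10 congenic, 3375, 4875 and 6833 in B6 and 3698, 4178 and 4341 in A/J brains. Its largest difference was 0.23, B6 minus A/J (adjusted p = 0.222), and Eef1b2, Eef1d and Eef1g, which recharge that factor, differed by at most 0.19.

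**Figure D3:**
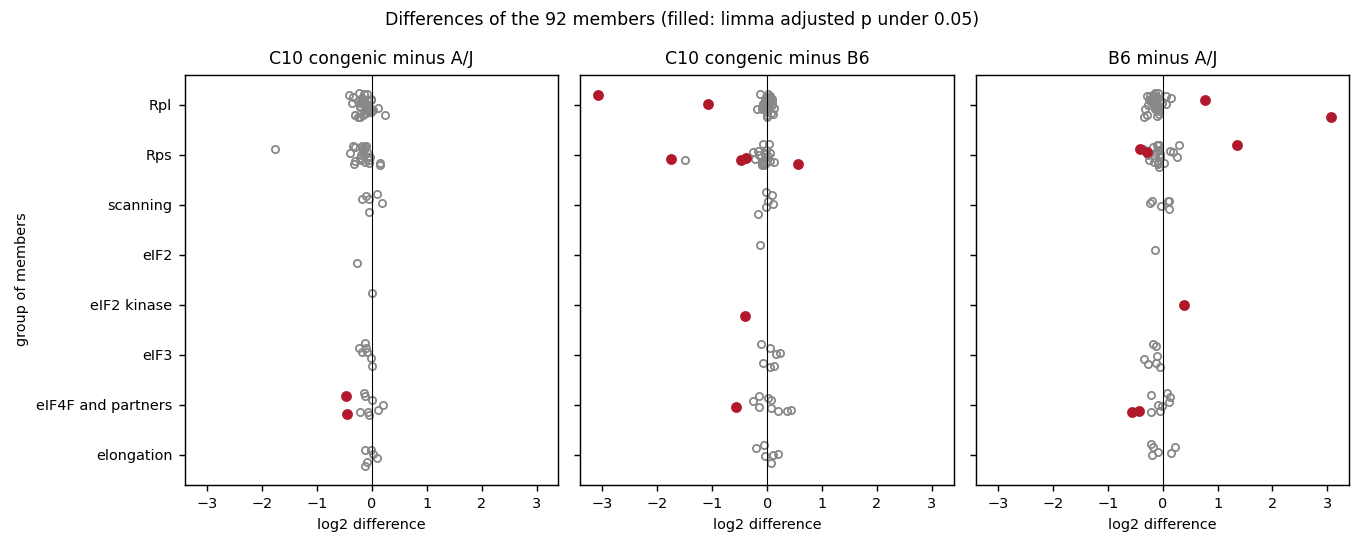
Fitted log2 difference (horizontal axis) of the 92 members in the 3 comparisons, 1 point per gene, grouped by role (vertical axis), with filled points for members with a limma adjusted p under 0.05. Most points lie slightly left of 0 in the 2 comparisons with A/J, and the open point at −1.76 is Rps13, which was lost on 1 array. The points of Rpl29 farthest from 0 are fitted against lines not detected there, so they give no exact size.

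On the normalized scale, C10 congenic and B6 brains did not overlap for 6 members, 1 higher and 5 lower, where 6.21% of all kept probes did not (2.46% higher, 3.75% lower). B6 and A/J brains did not overlap for 3 members, 2 higher and 1 lower, where 8.58% of all kept probes did not (4.57% higher, 4.01% lower). Without both brains that stood apart, these counts were 10 of 92 (10.9%, against 8.13% of all kept probes) and 6 of 92 (6.52%, against 11.1%). What the ribosomal genes had in common was a small displacement below the test's threshold for single genes, and the factors shared part of it. A/J had the highest line mean in 48 of the 61 ribosomal genes (78.7%), C10 congenic in 4 and B6 in 9, and A/J was highest for 34.6% of all kept probes. Of the 31 factors, A/J was highest in 19 (61.3%). Without both C10 congenic brain 3 and B6 brain 4, A/J was highest in 44 of 61 ribosomal genes (72.1%), against 37.1% of all kept probes. Among factors it was then highest in 17 of 31 (54.8%). In C10 congenic minus A/J, 56 of 61 were below 0 with a median of −0.14, against 7943 of all 15873 kept probes with a median of 0.00. In B6 minus A/J, 50 of 61 were below 0 with a median of −0.11, and these comparisons share the A/J brains. The 31 factors had medians of −0.08, 0.01 and −0.10 for C10 congenic minus A/J, C10 congenic minus B6 and B6 minus A/J. No p is attached to these medians, since the members share arrays and labelling.

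Part of the ribosomal displacement lay in C10 congenic brain 3. The median deviation of the 61 ribosomal genes from their means over 18 brains was −0.33 in that brain, with 46 of the 61 below their mean, and −0.08 to 0.08 in the other C10 congenic brains. In B6 brains it was −0.08 to 0.14, the highest in brain 4, and in A/J brains 0.03 to 0.16. All A/J brains lay above 0, and the lines overlapped. The same measure over factors was −0.19 in C10 congenic brain 3. It lay between −0.03 and 0.08 in the other C10 congenic brains, −0.08 and 0.03 in B6 and −0.04 and 0.21 in A/J brains. Over all kept probes it stayed between −0.01 and 0.04 in all 18 brains.

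**Figure D4:**
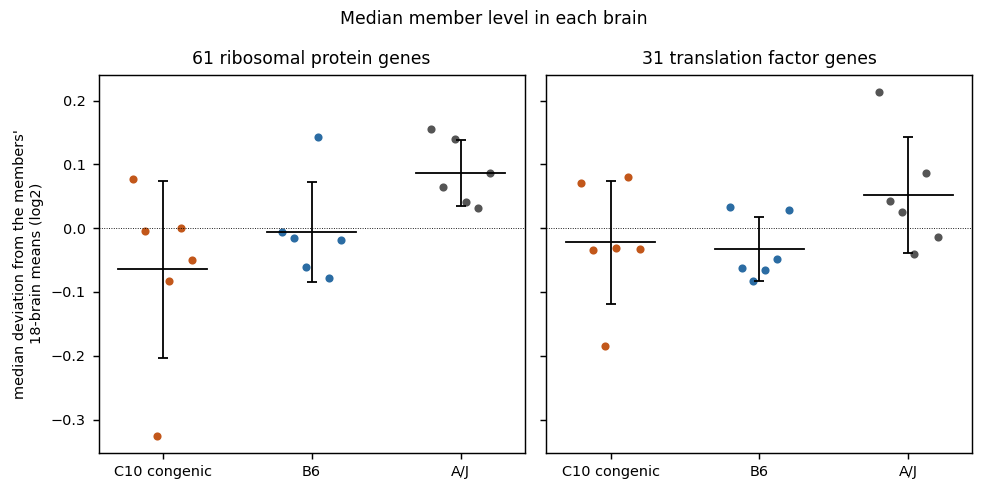
Median log2 deviation (vertical axis) of the 61 ribosomal protein genes (left) and 31 translation factor genes (right) from their means over 18 brains, 1 point per brain of the C10 congenic, B6 and A/J lines, with bars for the mean and SD of 6 brains. The 6 A/J brains lie above 0 for ribosomal genes, and C10 congenic brain 3 is lowest in both panels, at −0.33 and −0.19.

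Without C10 congenic brain 3 the ribosomal median was −0.10 for C10 congenic minus A/J, with 51 of 61 below 0, and 0.01 for C10 congenic minus B6. Members called then numbered 1 for C10 congenic minus A/J (0.614% of all kept probes), 6 for C10 congenic minus B6 (9.69%) and 9 for B6 minus A/J (17%). Without B6 brain 4, 2 members were called for C10 congenic minus A/J (2% of all kept probes), 6 for C10 congenic minus B6 (9.31%) and 9 for B6 minus A/J (15.1%). Leaving out both gave 2 (1.22%), 6 (8.3%) and 11 (16.8%), with ribosomal medians of −0.10, 0.03 and −0.14.

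Ribosomal genes were weakly correlated among brains of 1 line. With line means removed, the median correlation between 2 of the 61 ribosomal genes across 18 brains was 0.202, against 0.0456 between factors and −0.0045 between all kept probes. It was 0.172 without C10 congenic brain 3, 0.17 without B6 brain 4 and 0.0986 without both, a change of more than 1.5 times with both left out. Between factors it was 0.0442 without both. With all 18 brains, Rpl35a followed the mean of the other ribosomal genes most closely (r = 0.87), then Rpl26 (0.83) and Rpl13 (0.80). Rpl3 (−0.57), Rpl11 (−0.44) and the brightest probe of Rps9 (−0.35) ran against it. These 6 are named for their place in that order, and the correlations are descriptions over brains that share arrays and labelling.

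Among genes around translation, only Fau and Pdcd4 were called. Of all kept probes, 0.932% were called for C10 congenic minus A/J and 12.1% for C10 congenic minus B6. For B6 minus A/J 16.1% were called, 8.01% lower, and in lists this short 1 call is a large share. Of 8 ribosomal proteins that the naming or chromosome rule leaves out, Fau, whose product is cleaved to a small subunit protein, was lower in B6 than in A/J brains by −0.30 (SE 0.098, limma adjusted p = 0.0352), with 9926, 10690 and 14838 in B6 and 13320, 13796 and 15779 in A/J brains. The other 7, among them Rpl41, were not called. Of 9 genes of mTOR and S6 kinase signalling, Pdcd4, an inhibitor of eIF4A that S6 kinase marks for degradation, was lower in B6 than in A/J brains by −0.35 (SE 0.109, adjusted p = 0.0278), with 1051, 1286 and 1569 in B6 and 1552, 1688 and 1762 in A/J brains. The B6 and A/J brains of both genes overlapped. Among 19 ribosome biogenesis genes, led in brightness by Fbl, which methylates ribosomal RNA, and Nop58, its partner, limma called none in any comparison. For C10 congenic minus A/J, C10 congenic minus B6 and B6 minus A/J, 5, 4 and 2 of the 19 had an unadjusted p under 0.05. Of all 15873 kept probes, 2413, 4008 and 4561 had one. The medians of the 19 genes were −0.13, −0.06 and −0.02 in those comparisons. Of 4 termination and rescue genes, 5 tRNA synthetases and 10 poly(A) binding and ribosome-associated genes limma also called none. At an unadjusted p under 0.05 they held 0, 2 and 1, then 0, 1 and 1, and 0, 0 and 1 in the same 3 comparisons.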

How the data were processed

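For each newborn brain the authors deposited an intensity per probe, called signal in the file headers, with background subtracted. The submitters' processing notes name BeadStudio, with no version in the sources used here. The deposited detection score is a fraction per probe. Array medians were already close (26.3 to 26.9), and the deposited series table was identical to the array files. A probe was named by reading the number in its ID as an NCBI Gene ID only where it has a leading zero. Of such numbers 81.1% are Gene IDs, against 35.0% to 45.9% of the same numbers after shifting them. Of the others 10.6% are Gene IDs, and their share did not change on shifting them (10.3% to 10.8%). Naming only numbers with a leading zero left out 4 probes.

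Signals were shifted by 75, taken to log2 and quantile normalized, and probes with a detection score above 0.99 in at least 6 arrays were kept, control probes left out. The shift lessens differences of dim probes. All 18 arrays, 3 lines of 6 brains, were fitted with limma 3.58.1 (lmFit, eBayes, no block) in R 4.3.3, two-sided, adjusted by the Benjamini-Hochberg method over all kept probes, with calls at an adjusted p under 0.05. The fit was tested on simulated data. Brains are separate animals' brains per the series text. No chip, date or other batch is in the files.

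Genes are named if called, among the 10 brightest or 5 dimmest members, undetected in a line, measured by another kept probe, or in a set of well-known factors, and listed genes of other pathways if called or brightest. Members and lists were chosen with earlier results of these data known. The adult hippocampus arrays were not used here. Alternatives covered normalization, shift, floor, filters, trend, array weights, block, lines in the fit, single brains and averaged probes.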

Additional observations from a re-analysis of the deposited data

Results flagged for a closer look

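In lines of 6 brains, the gap from the highest or lowest brain to its nearest neighbour was compared with the range of the line, for 57 sets of values. 4 stood out, where chance flags about 1 set in 20. Rps13 was included because of its loss on 1 array, so its flag was fixed in advance. Without it, the flags are near that rate. Rps13 in C10 congenic brain 3 was at −52.3, with the other brains of that line at 14557 to 20339. Eif4e in C10 congenic brain 4 was at 579.5, the others at 762.1 to 805.6. Rps2 in A/J brain 1 was at 20620, the others at 23387 to 24979. The median deviation of the ribosomal genes in B6 brain 4 was 0.14 on the log2 scale, the others at −0.08 to −0.01.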

How the results depend on the processing

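The counts of called members depend on the settings. For C10 congenic minus A/J, 2 members became 1 with signals floored at 16, 0 with no filter on dim probes (14 at an unadjusted p under 0.05, limma), 6 with array weights and 1 with a gene's kept probes averaged. The shares of all probes called in those fits were 0.554%, 0.0022%, 6.09% and 0.878%, against 0.932%. For B6 minus A/J, 8 became 4 with no filter and 21 with array weights, where 4.73% and 30.7% of all probes were called, against 16.1%. Leaving out 1 brain gave 0 to 3 members for C10 congenic minus A/J, 5 to 9 for C10 congenic minus B6 and 5 to 9 for B6 minus A/J. Of all probes, 0.108% to 2%, 9.31% to 13.4% and 12.7% to 17.5% were called in these fits. The 7 fits with 0 members had 11 to 20 at an unadjusted p under 0.05, and 0.108% to 0.228% of all probes called. With the replicate number as a block the counts were 2, 8 and 7, and Rps27l lost its call. There, 1.41%, 13.1% and 17.1% of all probes were called. Among 18 same-numbered pairs of brains from different lines, correlations ran from −0.09 to 0.33, and 8 exceeded 0.1. Differently numbered pairs were not compared, so whether the numbers pair brains cannot be told. Counting the 4 probes without a leading zero gave 2, 8 and 9. The members' median differences moved by less than the SD between brains in every setting.

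With kept probes averaged, Rps9 turned to −0.14 (C10 congenic minus B6) and 0.23 (B6 minus A/J), by construction from its 2 probes. Rps13 turned to 0.10 in C10 congenic minus B6 without C10 congenic brain 3, and 0.13 without B6 brain 4 too. Over single brains left out it ran from −1.86 to 0.10. The uncalled dimmer probe of Eif4e2 turned to 0.051 with array weights and 0.033 without both brains in C10 congenic minus B6, and ran from −0.096 to −0.0031 with 1 brain left out. The causes were not tested. A block for the beadchip was not run, since the files used here name no chip. Leaving out those 2 brains together, line order and correlations without either, and counting the 4 probes were chosen after seeing the data. Dim probes near the detection limit, such as those of Eef1a1 and Rpl4, limit what could be called.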

Other observations

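Genes of other cell types were read on the same arrays, from marker lists chosen with earlier results of these data known. Of 3 radial glia and astrocyte markers, limma called none in any of the 3 comparisons, with 0 at an unadjusted p under 0.05. Among 6 markers of proliferating cells, Rrm2, which makes DNA precursors, was lower in C10 congenic than in B6 brains by −0.47 (limma adjusted p = 0.0368). Among 3 microglial markers, Csf1r, the receptor these cells need to survive, was higher in C10 congenic than in B6 brains by 0.56 (adjusted p = 0.0112). The others, C1qa and C1qb, differed by 0.05 and −0.07 there and were not called. Among 3 choroid plexus and meninges markers, Col1a2, a collagen chain, was detected in 0 of 6 C10 congenic, 6 of 6 B6 and 0 of 6 A/J brains, so it passed the filter only through B6. It was at least 1.89-fold higher in B6 than in C10 congenic and at least 1.93-fold higher than in A/J brains. The others, Col1a1 and Col3a1, differed by −0.34 and 0.20 for C10 congenic minus B6, in opposite directions, and were not called. The 3 globin probes did not move one way: Hba-a1 and Hbb-b2 were higher in C10 congenic than in B6 brains, by 1.20 and 5.65, and Hbb-b1 was lower, at −2.92. Their part in the ribosomal and factor results against B6 was not tested.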
